A study of Homo sapiens with 2 samples.

Results

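Lymphocytes leave the blood in steps. They roll when carbohydrate-bearing proteins such as PSGL-1 bind selectins on the vessel wall, arrest when integrins bind counter-receptors of the immunoglobulin family, and then crawl and cross. An integrin is a pair of 1 alpha and 1 beta subunit, so the subunits a T cell makes set which pairs it can place on its surface. Transcripts of 9 genes of this machinery were followed here, chosen by symbol: 3 alpha subunits (ITGA4, ITGAL, ITGAE), 3 beta subunits (ITGB1, ITGB2, ITGB7), the selectin ligand SELPLG, the hyaluronan receptor CD44 and the adhesion ligand ICAM3. All 9 were found among the 19220 gene symbols of the count table.

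The cells were H9, an established human T cell lymphoma line that is clonal and carries the label WT for genotype. The study asked which genes and pathways differ between cells with and without doxorubicin, a chemotherapy anthracycline and topoisomerase II poison. There was 1 library of untreated cells (0 h) and 1 library of cells given 0.05 µM doxorubicin for 6 h, both of poly(A) RNA. They held 33730703 and 50174434 counts, so the treated library was 1.49 times as deep. With 1 library per condition there is no test and no p-value, and every interval in parentheses is a 95% interval that covers counting error only. A gene was called higher or lower when its scaled ratio was at least 1.5-fold and its counting interval excluded 1, among genes with at least 100 counts over both libraries, which 11244 genes reached. All 9 homing genes reached that minimum.

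The T cell label was checked against 10 markers. CD3D, CD3E, CD3G, CD247, CD4, CD5 and LCK were measured, with CD3E at 7149 counts untreated and 8864 treated. CD2 had 0 and 2 counts, CD7 8 and 8, and CD28 8 and 13, so these 3 were at or near 0 in both libraries. Of 5 B cell markers CD79A had 6007 and 6628 counts and CD79B 755 and 1065, while PAX5 was at 0 in both and MS4A1 had 10 and 2. The summed level of those 5 was 206 CPM, the usual depth-scaled count, in untreated cells and 150.2 CPM in treated cells. Of 4 epithelial markers EPCAM had 2591 and 3236 counts and the other 3 had at most 18. Of 4 fibroblast markers COL1A1 had 172 and 317 counts and the other 3 had at most 4, and CD8A, of cytotoxic T cells, had 22 and 81. The 5 myeloid, 5 natural killer and 5 endothelial markers were all below the count minimum, with sums of at most 0.121 CPM. What part cells of another type could have in the values below was not tested.

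Of the 9 genes, 1 was higher with doxorubicin by the size rule, 0 were lower and 8 were neither. Over all measured genes 7.26% were called higher and 9.57% lower, so a count of 1 in 9 is near the background. With total counts in place of TMM, 3 of the 9 were higher beside 9.64% of all genes. The called gene was ITGA4, the alpha-4 subunit of the integrins that bind VCAM-1 and MAdCAM-1. ITGAL and ITGB7 followed just under the limit. The median log2 ratio of the 9 was 0.26, beside 0.007 over all measured genes, and 7 of the 9 lay above 0. In bulk RNA a change in the make-up of the culture and a change of RNA per cell cannot be told apart.

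**Figure D1:**
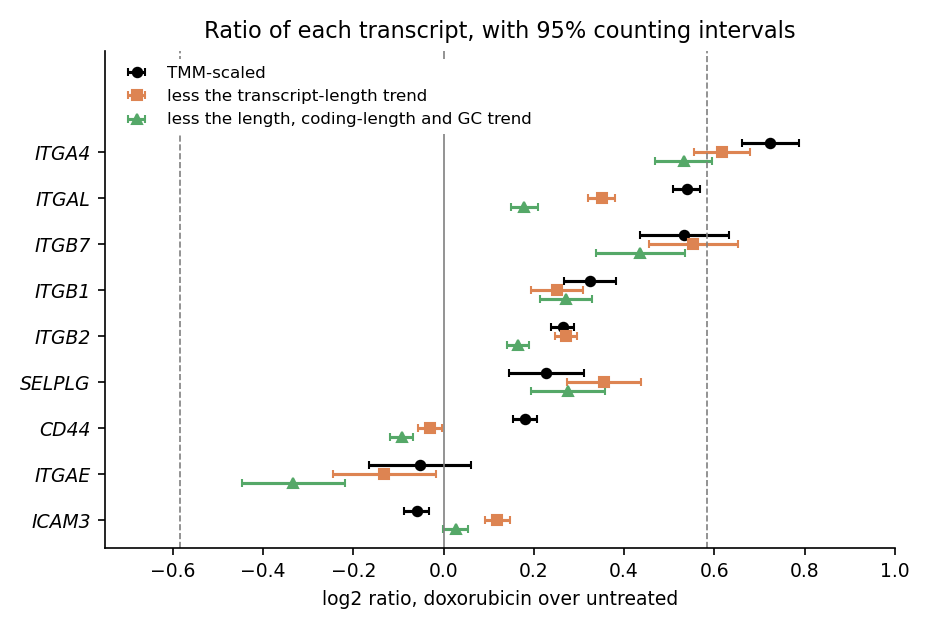
Log2 ratio of doxorubicin over untreated for each of the 9 genes, with 95% counting intervals. Black points are scaled by TMM, orange squares have the transcript-length trend of all measured genes subtracted, and green triangles the trend of transcript length, coding length and GC content; dashed lines mark 1.5-fold. ITGA4 is the only gene whose black point lies past a dashed line, and its green point, at 0.53, lies inside it.

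ITGA4 had 2844 counts untreated and 7326 treated, which is 86.3 and 142.6 CPM after scaling. Treated cells were therefore 1.65-fold higher (1.58 to 1.73), with a log2 ratio of 0.72 (0.66 to 0.79) that ranked at percentile 96.2 of all measured genes. ITGA4 pairs with ITGB1 to form VLA-4, which binds VCAM-1 and fibronectin, or with ITGB7 to form the gut-homing receptor of MAdCAM-1. ITGAL encodes the alpha-L subunit of LFA-1, the main receptor of T cells for ICAM-1 and also a receptor of ICAM-3. It had 12909 counts untreated and 29236 treated, or 392 and 569 CPM. Its log2 ratio of 0.54 (0.51 to 0.57) was at percentile 91.2 and, at 1.45-fold, short of the limit. ITGAE encodes the alpha-E subunit (CD103), which keeps T cells in epithelia by binding E-cadherin. With 1050 counts untreated and 1579 treated, or 31.9 and 30.7 CPM, its levels were close, and its log2 ratio of -0.05 (-0.17 to 0.06) turned to the other sign under total-count scaling, at 0.016. A difference in ITGAE within that interval was not detectable at this depth. Exons of HASPIN, a histone kinase gene, cover 6.41% of those of ITGAE. HASPIN, listed under its older symbol GSG2, had 1064 counts untreated and 2548 treated, a 1.54-fold higher value (1.43 to 1.65). The sources used here do not say whether reads were counted by strand, and how reads in the shared stretch were divided was not tested.

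Among the beta subunits ITGB7, the partner of ITGA4 and ITGAE, had the highest ratio. It had 1202 counts untreated and 2712 treated, or 36.5 and 52.8 CPM, and a log2 ratio of 0.53 (0.43 to 0.63) at percentile 90.97. The upper end of that interval is past 1.5-fold and the value is not. Exons of the zinc finger gene ZNF740 cover 42.1% of those of ITGB7, so the count of ITGB7 is uncertain, and ZNF740 itself was at a log2 ratio of 0.33 (0.22 to 0.45) from 1002 and 1971 counts. ITGB1, the beta-1 subunit shared by VLA-4 and the collagen and laminin receptors, had 3661 counts untreated and 7152 treated, or 111 and 139 CPM. Its log2 ratio was 0.33 (0.27 to 0.38), and 15.3% of its sampled stretches of 50 bases also occur in transcripts of other genes. ITGB2, the beta-2 subunit of leukocyte integrins, was the most counted of the 9. It had 19828 counts untreated and 37122 treated, or 602 and 723 CPM, and a log2 ratio of 0.26 (0.24 to 0.29). All 3 beta subunits thus lay above the untreated level by less than 1.5-fold, with ITGB7 ahead of ITGB1 and ITGB2.

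SELPLG encodes PSGL-1, the mucin by which leukocytes roll on P-selectin. It had 1854 counts untreated and 3386 treated, or 56.3 and 65.9 CPM, and a log2 ratio of 0.23 (0.15 to 0.31). CD44, a receptor for hyaluronan that also serves as a selectin ligand when suitably glycosylated, had 18607 counts untreated and 32885 treated, or 565 and 640.2 CPM. Its log2 ratio was 0.18 (0.15 to 0.21), and ICAM3, a constitutive ligand of LFA-1 on resting leukocytes, was at -0.06 (-0.09 to -0.03). The counts of ICAM3 were 17391 untreated and 26019 treated, or 528 and 506 CPM. Its direction was not stable to scaling, since total counts gave 0.008. The ratios of these 3 genes thus lay below those of ITGA4, ITGAL and ITGB7, and their counting intervals did not reach the 1.5-fold limit.

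**Figure D2:**
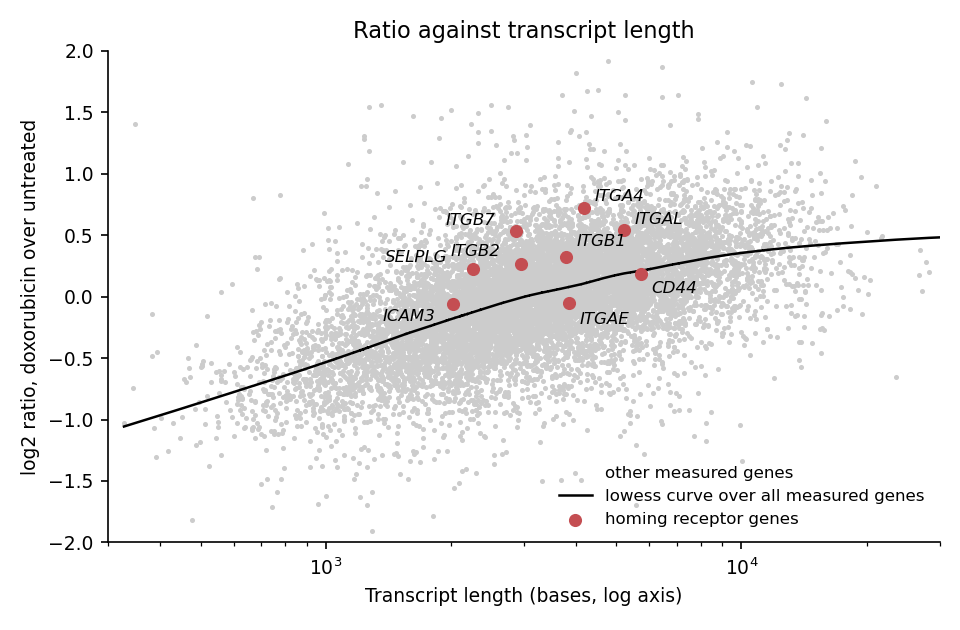
Log2 ratio of doxorubicin over untreated against transcript length on a log axis, with each grey point a measured gene, red points the 9 homing genes and the black line a lowess curve over all measured genes. ITGA4 and ITGB7 stand 0.62 and 0.55 above the curve, while CD44 lies on it at -0.03.

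Ratios rose with transcript length across the whole table (Spearman's rho 0.55 over genes, which are not independent replicates), so each ratio was also set against that trend. At the length of the ITGA4 transcript, 4189 bases, the lowess curve of all measured genes was at 0.11, and ITGA4 stood 0.62 above it. It was 1 of 9 genes still called higher, beside 4.84% of all genes called higher and 4.65% called lower. ITGB7, with 2867 bases, stood 0.55 above the curve and SELPLG, with 2256 bases, 0.36 above it. ITGAL, with 5213 bases, dropped to 0.35. CD44, with the longest transcript of the 9 at 5732 bases, changed sign to -0.03, and ICAM3, with the shortest at 2024 bases, changed sign to 0.12. With transcript length, coding length and GC content all taken out, ITGA4 was at 0.53, ITGB7 at 0.44 and ITGAL at only 0.18. By that measure 0 of the 9 genes passed the size rule, beside 4.12% of all genes called higher and 3.57% lower. ITGAE was then the lowest, at -0.33 (-0.45 to -0.22). ITGA4 had the highest of the 9 values in all 3 versions, with ITGB7 next in both adjusted ones. The adjusted values depend on the length used. A lowess curve on median annotated transcript length left ITGA4 at 0.80, ITGB7 at 0.60, ITGAL at 0.54, CD44 at 0.23 and ICAM3 at 0.02. Which part of any ratio comes with length was not tested.

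Levels can be compared between genes only per length. They were computed as scaled CPM divided by the length in kilobases of the longest transcript paired with RefSeq (RPKM). By this length untreated cells held most ICAM3, at 261 RPKM (257 to 265), and then ITGB2 at 204 (201 to 207). CD44 followed at 98.5 RPKM and ITGAL at 75.2. ITGB1 was at 29.4, SELPLG at 24.9, ITGA4 at 20.6, ITGB7 at 12.7 and ITGAE at 8.26 RPKM. No neighbours in this order had overlapping counting intervals in untreated cells. With doxorubicin ITGA4, at 34 RPKM, stood above SELPLG at 29.2, and the rest of the order was the same. ICAM3 and ITGB2 then lay next to each other at 250.2 and 245 RPKM, and CD44 and ITGAL at 111.7 and 109 RPKM. The spread between cultures was not measured, so such close neighbours have no settled order. The order also depends on the length used, a check chosen after the values were seen. Per coding length the untreated order was the same, but with doxorubicin SELPLG, at 53.3 RPKM, stayed above ITGA4 at 46.1. Per median annotated transcript length ITGB2 came first in untreated cells, at 936 RPKM, then CD44 at 801, ITGAL at 698 and ICAM3 at 527. Which transcripts the reads came from was not measured.

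**Figure D3:**
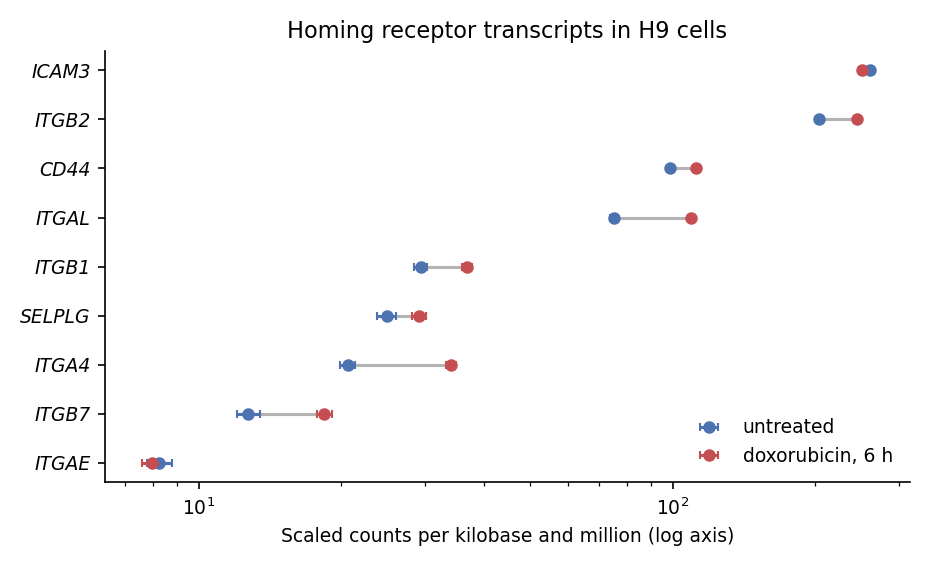
Level of each of the 9 transcripts per length, in RPKM on a log axis, in the untreated library (blue) and the doxorubicin library (red), with 95% counting intervals. The genes span 8.26 to 261 in untreated cells, and ITGA4 shows the widest gap between the libraries.

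Setting the subunits of known pairs against each other removes the scaling between libraries. In untreated cells ITGAL stood at 0.369 of ITGB2 per length (0.361 to 0.377), and with doxorubicin at 0.446 (0.440 to 0.453), a 1.21-fold higher ratio (1.18 to 1.24). Per median annotated transcript length this ratio was 0.746 and 0.903, so its size in a library depends on the length used. For VLA-4, ITGA4 stood at 0.702 of ITGB1 (0.668 to 0.737) untreated and 0.925 (0.896 to 0.956) treated, a 1.32-fold higher ratio (1.24 to 1.40), and per median annotated transcript length it was 0.386 and 0.509. Against ITGB7, ITGA4 per length stood at 1.62 (1.51 to 1.73) untreated and 1.85 (1.77 to 1.93) treated. Exons of ZNF740 cover 42.1% of those of ITGB7, so ratios to ITGB7 are uncertain beyond their counting intervals. The ratio of ITGAE to ITGB7 moved the other way, with ITGAE itself at a log2 ratio of -0.05 (-0.17 to 0.06) and ITGB7 at 0.53. This subunit ratio was 0.649 (0.597 to 0.706) untreated and 0.433 (0.406 to 0.461) treated, a log2 change of -0.59 (-0.73 to -0.44). After subtracting the transcript-length trend from each subunit, the log2 change was 0.36 for ITGA4 to ITGB1 and -0.68 for ITGAE to ITGB7. That of ITGAL to ITGB2 shrank from 0.27 to 0.08 and that of ITGA4 to ITGB7 from 0.19 to 0.06. This shrinkage depends on the length used, since a lowess curve on median transcript length left ITGAL at 0.54 and ITGB2 at 0.28. With the length and GC trend subtracted, the 4 changes were 0.26 for ITGA4 to ITGB1, -0.77 for ITGAE to ITGB7, 0.01 for ITGAL to ITGB2 and 0.10 for ITGA4 to ITGB7. No size limit was set for these ratios, and transcripts do not measure how many pairs reach the surface.

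**Figure D4:**
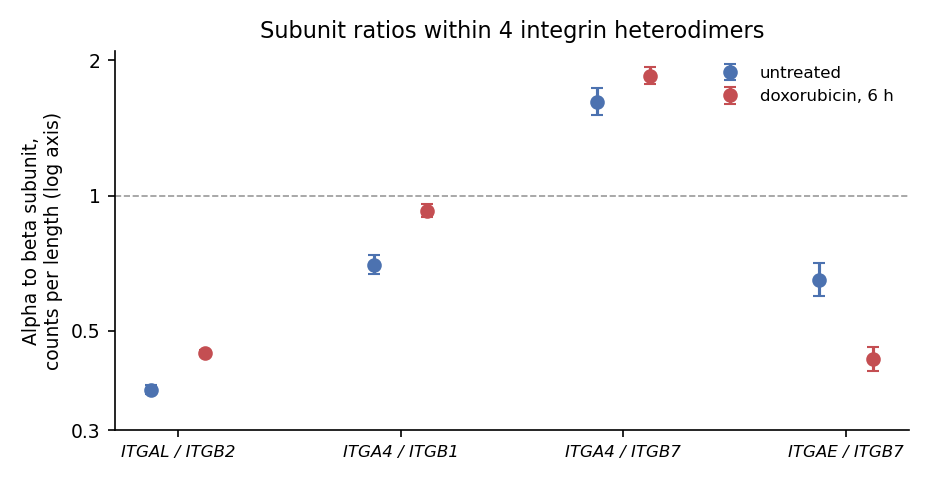
Ratio of alpha to beta subunit transcripts per length, on a log axis, for 4 integrin pairs in the untreated library (blue) and the doxorubicin library (red), with 95% counting intervals. Before any length trend is subtracted, the ratio is higher with doxorubicin in the 3 pairs with ITGAL or ITGA4. It is lower for ITGAE to ITGB7, at 0.649 and 0.433. Less the transcript-length trend the log2 changes of ITGAL to ITGB2 and ITGA4 to ITGB7 are 0.08 and 0.06. Exons of ZNF740 cover 42.1% of those of ITGB7, so ratios to ITGB7 are uncertain.

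The stretches just before the gene start are shown for the 3 subunits of the beta-7 pairs, whose ratios differed. They come from RefSeq windows on GRCh38.p14, another build than the hg19 of the counts. By symbol 6 of the 9 genes matched, the others being ITGAL, ITGB2 and SELPLG. Each line gives the 160 bases before the start, 5′ to 3′ on the gene's strand, at chr2:181457226-181457385 (+ strand) for ITGA4, chr12:53207252-53207411 (- strand) for ITGB7 and chr17:3801189-3801348 (- strand) for ITGAE. Capitals mark a match to the ETS-type motif AGGAAG on either strand.
ITGA4: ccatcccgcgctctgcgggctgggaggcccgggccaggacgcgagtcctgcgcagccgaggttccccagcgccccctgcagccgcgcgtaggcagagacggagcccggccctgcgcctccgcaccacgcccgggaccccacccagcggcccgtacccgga
ITGB7: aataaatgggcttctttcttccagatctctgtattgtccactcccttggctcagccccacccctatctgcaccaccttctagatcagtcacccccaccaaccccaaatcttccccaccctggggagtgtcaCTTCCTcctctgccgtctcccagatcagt
ITGAE: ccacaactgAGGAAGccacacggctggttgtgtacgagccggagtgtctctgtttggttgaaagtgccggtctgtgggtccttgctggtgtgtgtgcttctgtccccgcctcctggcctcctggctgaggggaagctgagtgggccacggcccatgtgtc

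The 250 bases before the start were searched on both strands for 7 motifs: RUNX (TGTGGT), ETS (AGGAAG), SP1 (GGGCGG), AP-1 (TGANTCA), the E-box bound by ZEB1 (CACCTG), the CCAAT box (CCAAT) and the TATA box (TATAAA). ITGB7 held the ETS letters 29 bases before its start and ITGAE 151 bases before, and 28.7% of all 35116 windows hold them. ITGA4 held none of the 7 in this window. Its window was also the richest in G and C of these 3, at 72.8%, against 60.0% for ITGAE, 49.6% for ITGB7 and a median of 58% over all windows. Such matches describe letters and not binding.

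The wider integrin family in H9 cells was narrow. Of the 20 other subunits 9 reached the count minimum, and 1 (ITGA8) was at 0 in both libraries. The 3 alpha subunits among the homing genes made up 84.5% of all alpha-subunit RPKM untreated and 84.3% treated. The 3 beta subunits made up 97.3% in both libraries. The other alpha partners of ITGB2 were nearly absent, with ITGAM at 8 and 10 counts, ITGAX at 8 and 15 and ITGAD at 2 and 0. ITGAL was therefore the only partner of ITGB2 above the count minimum. Of the 9 measured other subunits 3 were higher and 0 lower, beside 7.26% and 9.57% of all measured genes. Their median log2 ratio was 0.34. ITGA2, a collagen receptor subunit, was 2.73-fold higher (1.78 to 4.47) from only 25 and 108 counts, and ITGA1, another collagen receptor subunit, was 1.735-fold higher (1.59 to 1.90). ITGA5, the fibronectin receptor subunit, had 655 counts untreated and 1758 treated and was 1.72-fold higher (1.57 to 1.89). These 3 subunits, like ITGA4, pair with ITGB1, whose own ratio was below the limit. ITGA3, ITGA6, ITGA7 and ITGAV can pair with ITGB1 too, and at 0.47, 0.13, -0.23 and 0.18 none of these was called. The median transcript of the 9 measured other subunits is long, at 5919 bases. Less the length trend their median ratio was 0.12, with ITGA1 at 0.43 no longer called. A curve on median transcript length instead left their median at 0.42 and ITGA1 at 0.85. Less the trend of lengths and GC content ITGA1 and ITGA5, both at 0.52, were not called. ITGA2 was then the 1 subunit still higher, beside 4.12% of all genes.

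Of 14 ligands that integrins or selectins bind on other cells or matrix, 8 were measured, 1 was higher and 0 lower. Shares over all measured genes were 7.26% higher and 9.57% lower. ICAM1, the inducible ligand of LFA-1, had 2744 counts untreated and 6818 treated and was 1.59-fold higher (1.52 to 1.67). At 0.65 it was still past the limit less the length trend, and at 0.53 less the trend of length and GC content it was not. The median log2 ratio of the 8 measured ligands was 0.40, and 0.45 less the length trend. VCAM1, the ligand of VLA-4, had 135 and 301 counts and CDH1, the E-cadherin bound by the alpha-E pair, 94 and 201. MADCAM1, the ligand of the alpha-4 beta-7 pair, had 8 and 4 counts, below the minimum.

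Selectins and the enzymes that build their carbohydrate ligands had 14 of 22 members measured, of which 3 were higher and 0 lower, with a median of 0.24. All measured genes gave 7.26% higher and 9.57% lower. TPST1, which sulphates tyrosines of PSGL-1, was 1.87-fold higher (1.35 to 2.66) from 49 and 144 counts. Its relative TPST2 had more counts, 1085 and 1803, at a log2 ratio of 0.09 (-0.02 to 0.20). B4GALT1, a galactosyltransferase, was 1.71-fold higher (1.58 to 1.85) from 847 and 2259 counts, but at 0.58 less the trend of lengths and GC content it was not called. GLG1, which encodes an E-selectin ligand, completed the 3, but less the length trend it was at 0.43 and not called. On median transcript length it was at 0.66. FUT7, the fucosyltransferase that makes sialyl Lewis X on leukocytes, had 2 counts untreated and 0 treated, and a count of 0 allows up to 0.0584 CPM there. Its relative FUT4 had 386 and 741 counts, and another gene overlaps 11.3% of its exons. SELE, the endothelial E-selectin gene, was at 0 in both libraries.

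Proteins that switch integrins on or tie them to actin were measured in 29 of 31 cases, with 5 higher, 2 lower and a median of 0.13. Over all measured genes 7.26% were higher and 9.57% lower. FLNA, the actin crosslinker filamin A that competes with talin for beta tails, had 24984 counts untreated and 77265 treated and was 1.98-fold higher (1.95 to 2.01). DOCK2, a Rac activator of migrating lymphocytes, had 4688 and 14002 counts and was 1.92-fold higher (1.85 to 1.98). On the lower side SKAP1, an adaptor that links the T cell receptor to integrin activation, was 1.66-fold lower (1.31 to 2.10) from 150 and 141 counts. RAP1A, a small GTPase that activates LFA-1, was 1.51-fold lower (1.46 to 1.57) from 5583 and 5760 counts, a call not made with total counts. Its near twin RAP1B, with 25% of its stretches shared with other genes, had 7112 and 11824 counts and a log2 ratio of 0.09. APBB1IP, the RAP1 effector RIAM, was at 0 in both libraries, where a count of 0 allows 0.0911 CPM untreated and 0.0584 treated. TLN1 and FERMT3, the talin and kindlin of leukocytes, were at 0.44 and -0.10. Less the trend of lengths and GC content 0 of the 28 members with a length were called in either direction. Of all genes 4.12% were then called higher and 3.57% lower.

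Linkers of CD44 to actin, its sheddases and splicing factors and enzymes of hyaluronan had 13 of 16 members measured. Of these 2 were higher and 1 lower, beside 7.26% and 9.57% of all measured genes, with a median of -0.002. The linkers EZR, MSN and RDX were at log2 ratios of -0.002, 0.14 and -0.01. HAS3, a hyaluronan synthase, was 2.18-fold higher (1.63 to 2.99) from 58 and 198 counts. PODXL, a sialomucin, was 1.67-fold higher (1.53 to 1.83). ESRP1, an epithelial splicing factor that favours CD44 variant exons, was 1.54-fold lower (1.34 to 1.76) from 434 and 440 counts. All 3 stayed past the size rule under both length adjustments, while ESRP1 did not with total counts. A table of counts per gene does not show which exons of CD44 were used.

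Among 16 measured genes of 19 that control homing receptors or travel with them, 0 were higher and 0 lower. Over all measured genes the shares were 7.26% and 9.57%. ETS1 and TGFB1 had the most counts of the 16. ETS1 had 16465 counts untreated and 31205 treated, at a log2 ratio of 0.28 (0.25 to 0.31). TGFB1 had 6523 and 10163 counts, at -0.001 (-0.046 to 0.044). CCR7 had 4749 and 8735 counts, at 0.24 (0.19 to 0.29). ETS1 is a lymphoid transcription factor and CCR7 the chemokine receptor of lymph node entry. KLF2, which drives S1PR1 in resting T cells, had 46 and 50 counts, and S1PR1 had 4 and 9. These were below the count minimum.

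**Figure D5:**
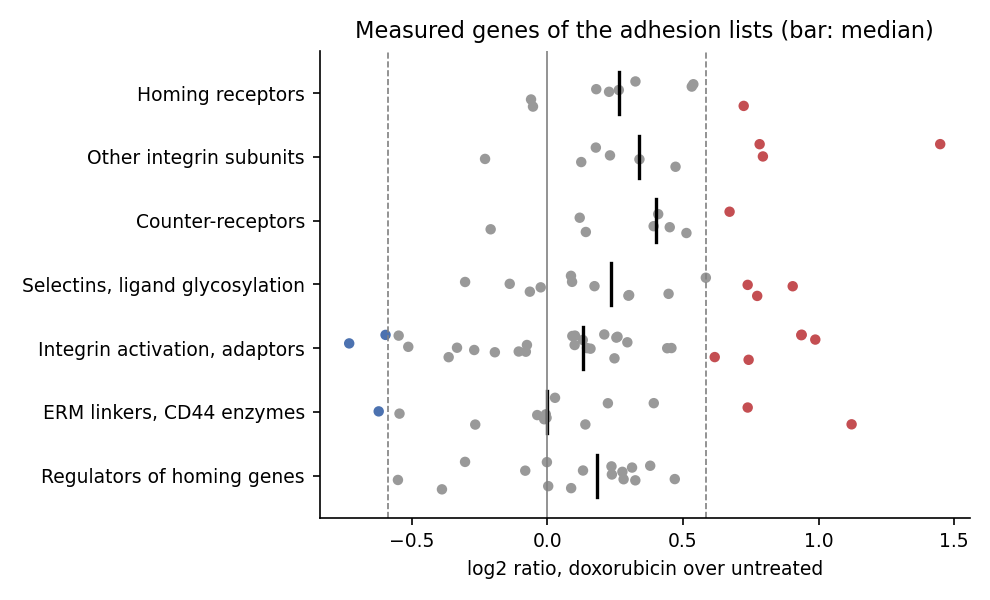
Log2 ratio of doxorubicin over untreated for each measured gene of the 9 homing genes and of 6 related lists, with red for genes called higher, blue for genes called lower, grey for neither, black bars for medians and dashed lines for 1.5-fold. Medians run from -0.002 for the CD44 linkers and enzymes to 0.40 for the counter-receptors, and most genes of every list lie between the dashed lines.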

How the data were processed

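The authors deposited whole-number read counts per gene symbol for 2 libraries, neither scaled nor length-corrected. The submitters' processing notes name HISAT2, featureCounts and hg19; the sources used here do not give versions, annotation, strand setting or the handling of multiply aligned reads. Counts were scaled by TMM in edgeR 4.0.16 (R 4.3.3), 0.5 was added before each log2 ratio, and exact Clopper-Pearson 95% intervals were computed. Intervals of changes in subunit ratios used the normal approximation on the log odds, and those of RPKM exact Poisson limits. A count of 0 was taken to allow 3 counts. These intervals cover counting error only, since PCR copies cannot be told from separate molecules and no second culture was analysed. Alternatives were the size factors of DESeq2 1.42.0, total counts, other minimums, limits and intervals, and a larger added count. The script was tested on simulated counts.

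Lengths, GC content, exon overlaps and shared stretches of 50 bases, sampled every 25 bases, came from GENCODE release 29, on another build than the counts; 98.2% of the measured genes matched by symbol or an older symbol. The length of a gene was that of its longest transcript paired with RefSeq. Trends were fitted with lowess (span 0.3) or regression splines over 11021 genes. All 9 members are named, and from each related list up to 2 highest and 2 lowest called members or, where none was called, the 2 with the most counts. Further genes were named for their known role after their values were seen. The members and lists were chosen with earlier results of these data known. With 2 libraries a pattern is 1 ratio, so no genes of like pattern were sought. Some genes of the lists are not reported here.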

Additional observations from a re-analysis of the deposited data

How the results depend on the processing

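With 1 library per condition no replicate could be left out and no paired analysis was possible. ITGA4 stayed above 0 under every scaling and adjustment run, between 0.53 and 0.80. The number of homing genes called higher was 1, beside 7.26% of all genes. With total counts 3 were called, beside 9.64%, as ITGAL and ITGB7 joined at 0.61 and 0.60. The number was 0 with the length and GC splines, beside 4.12% of all genes. It was 2 with the lowess curve on median transcript length, 0 at a 2-fold limit and 4 at the lowest fold limit tried. DESeq2 size factors, a 99% interval and a minimum of 10 counts gave 1. None of the homing genes was called lower in any of these settings. Shares of all genes were computed only for the main, total-count (higher only), transcript-length lowess and spline settings. The other counts here and below therefore have no background beside them.

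In the related lists, the splines left 1 other integrin subunit, 0 counter-receptors, 1 selectin or glycosylation gene, 0 higher and 0 lower adaptors. Over all genes they called 4.12% higher and 3.57% lower. The lowess curve left 3 adaptors higher, beside 4.84% of all genes. Total counts gave 1 adaptor and 0 CD44-related genes lower. The lowess curve on median length gave 1 adaptor lower, and a minimum of 500 counts gave 1 adaptor lower and 1 CD44-related gene higher. A minimum of 10 counts gave 2 counter-receptors and 4 other integrin subunits higher. With it the median log2 ratio of the other integrin subunits rose from 0.34 to 0.77. The causes of these moves were not tested beyond what each setting changes.

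Levels and subunit ratios depend on the length used. Unadjusted changes of the ratios between libraries do not, because a fixed length cancels. Changes less a length trend do: ITGAL and ITGB2 were at 0.35 and 0.27 with the longest transcript. With median transcript length they were at 0.54 and 0.28. The ratios with coding length, untreated and treated, were 0.428 and 0.518 for ITGAL to ITGB2 and 0.601 and 0.792 for ITGA4 to ITGB1. They were 1.83 and 2.09 for ITGA4 to ITGB7 and 0.591 and 0.394 for ITGAE to ITGB7. With median transcript length the same ratios were 0.746 and 0.903, 0.386 and 0.509, 1.54 and 1.76, and 0.890 and 0.593.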
